A study of Mus musculus with 6 samples.

Results

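The 10 genes described here encode receptor tyrosine kinases of blood and vessel cells: Flt3, Csf1r, Tek, Tie1, Igf1r, Insr, Kdr, Fgfr1, Axl and Mertk. They were chosen by name, as receptors of this class with Kit left out, and each matched 1 of the 24815 gene rows of the deposited tables. Of the 10, 9 passed the filter on low counts, as did 12222 genes in all, and Mertk did not. RNA was sequenced from common myeloid progenitors sorted from the livers of C57BL/6 fetuses at E13.5 (a stage in embryonic days), with 3 wild-type libraries (A, F and L) and 3 libraries homozygous for deletion of the Gata2 -77 enhancer (-77-/-; C, D and Q). Both groups were sorted by the same gate, which took lineage-negative cells that were CD34+ and c-kit+, low for Fc receptor and negative for Sca-1, with CD41 and CD48 among the excluded markers. The labels do not say whether each library is a separate fetus or a pool, and p-values therefore cover the spread among these libraries alone, which may be technical.

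Receptor tyrosine kinases are single-pass membrane proteins. In many of them a ligand brings receptor chains together, and the chains phosphorylate each other on tyrosine. Adaptors then pass the signal to the RAS-MAPK, PI3K-AKT and STAT pathways. In blood formation FLT3 and CSF1R are known for roles in early progenitors and in the monocyte and macrophage line, TEK (also called TIE2) in stem cells and endothelium, and AXL and MERTK in the clearance of dying cells by phagocytes.

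Gata2, whose enhancer was deleted outside the transcript, stood at 53.1, 34.6 and 37.9 TPM (RSEM's transcript abundance, corrected for gene length and depth) in wild type, against 1.85, 9.92 and 9.58 TPM in mutants C, D and Q. Depth was 14473913 to 30596279 expected counts per library. Mutant C stood apart: its correlation with each other library across genes was at most 0.923, against least 0.983 for the closest partner of every other library. Its counts fell on shorter genes, with a count-weighted mean length of 1781 bases against 2834 to 3124 bases elsewhere. The median log2 difference between mutant C and the mean of D and Q was 1.71 for genes up to 1000 bases and -0.99 for genes of 4000 to 8000 bases. The 9 tested receptors lay between -0.16 (Tie1) and -1.56 (Igf1r) on that scale, and comparisons below are also given without mutant C.

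The gate markers were present, with Cd34 at 323 to 752 TPM and Ptprc, the pan-leukocyte antigen gene, at 21 to 110 TPM. Kit stood at 136, 123 and 113 TPM in wild type and was lower in every mutant library, at 12.5, 106 and 87.4 TPM in C, D and Q. In CPM, Kit was likewise lower and Cd34 higher in all 3 mutant libraries, without overlap, as were 11.4% and 10.6% of all genes tested. Neither passed by edgeR, with log2 changes of -0.57 (Kit) and 0.44 (Cd34) and an adjusted p of 0.58 for each. Without mutant C the changes were -0.23 and 0.33, with an adjusted p of 0.37 for each. Summed over the 5 genes of positive gate markers, wild-type libraries held 893 to 937 TPM and mutants 406 to 1001. The 9 genes of excluded markers summed to 204 to 218 TPM in wild type, against 216 to 260 in the mutant, most of it from Cd48. Cd48 was higher in every mutant library, at 201 to 251 TPM beside 169 to 186 TPM in wild type. Itga2b, which encodes CD41, stood at 14.6 to 23.5 TPM in wild type, against 1.47 to 4.39 TPM in the mutant, without overlap. By edgeR it passed over all genes (log2 change -1.98, adjusted p = 0.032), as did 0.155% of all genes. It also passed without mutant C (adjusted p = 0.0035 by edgeR), as did 0.84%. Cd3e, the T cell receptor subunit, was at 0 in all libraries. The part of these gate markers in the receptor values was not tested.

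Csf1r and Flt3 were the most abundant of the 10 receptors in wild type. Per gene length, Csf1r had 79.6 ± 11.2 TPM (SD, n = 3) and Flt3 76.4 ± 5.73 TPM, values that overlapped between libraries. Insr (15.2 ± 1.53 TPM), Igf1r (14.7 ± 1.98) and Tie1 (12.4 ± 2.73) formed the next step and overlapped with their neighbours in the order. Tek at 6.56 ± 0.592 TPM lay below every Tie1 value, followed by Axl (3.34 ± 0.456), Fgfr1 (1.94 ± 0.115), Kdr (0.793 ± 0.183) and Mertk (0.11 ± 0.070), with no overlap between neighbours. Together the 10 genes held 193 to 229 TPM in wild type, 56.9 TPM in mutant C, 229 in D and 178 in Q. Csf1r and Flt3 made up 72.7% to 75.5% of that sum in wild-type libraries and 78.7% to 83.5% in mutant libraries, with no overlap.

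**Figure D1:**
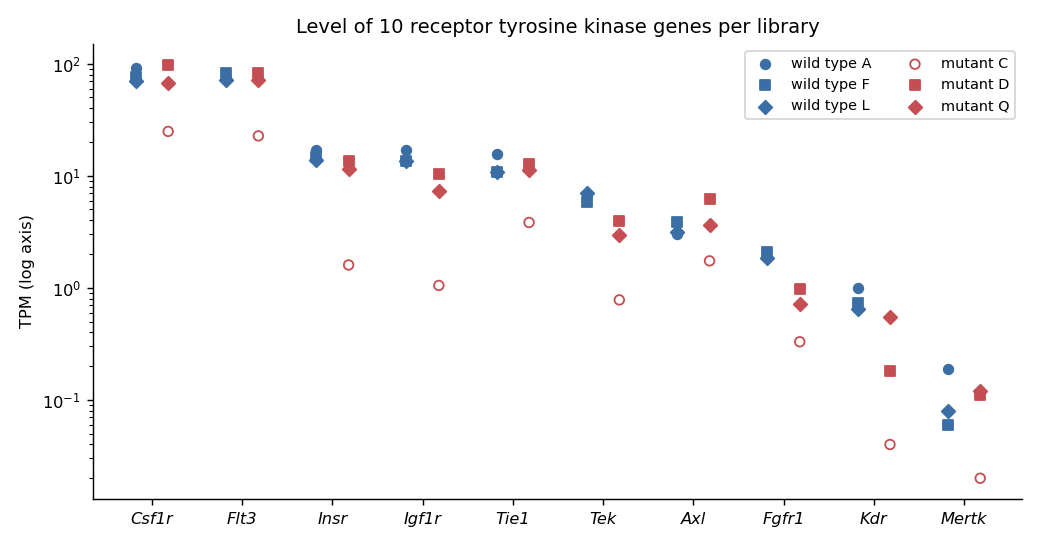
Level of each receptor gene in each library, in TPM on a log axis, ordered by the wild-type mean (wild type in blue, mutant in red, mutant C as open circles). Csf1r and Flt3 lie between 67.6 and 98.0 TPM in the libraries other than mutant C, and mutant C is the lowest library for all 10 genes.

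The most abundant receptors, Flt3 and Csf1r, lay at overlapping levels in mutant and wild-type progenitors, as did Tie1. In CPM (counts scaled to library size with TMM factors, not corrected for length), no mutant value of Tek, Igf1r, Insr, Kdr or Fgfr1 reached the lowest wild-type value, and every mutant value of Axl lay above the highest wild-type one. The log2 changes of these 6 genes ran from -1.20 (Kdr) to 0.62 (Axl), and none passed the test over all genes. Groups without overlap, with the mutant lower, occurred in 11.4% of all 12222 genes tested, and with the mutant higher in 10.6%. By edgeR's quasi-likelihood test adjusted over all genes, 0 of the 9 receptors passed 0.05, where 0.155% of all genes did. At an unadjusted p under 0.05, 2 were lower (Tek and Fgfr1; 3.09% of all genes) and 1 higher (Axl; 1.71%). With all libraries DESeq2 called 0 of 10 (0.674% of all genes) and limma-voom 0 of 9 (0.262%).

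Without mutant C, edgeR again called 0 of the 9 (0.84% of all genes), with 3 lower (Tek, Igf1r and Fgfr1; 6.02% of all genes) and Axl higher (4.34%) before adjustment (p under 0.05). DESeq2 without it called Igf1r and Tek lower (1.33% of all genes) and limma-voom called Tek (0.88%). With all 6 libraries, limma-voom with sample quality weights called Igf1r and Tek lower (2.92% of all genes). The median log2 change of the 9 receptors was -0.48, beside -0.02 for all genes tested. Without mutant C these medians were -0.15 and -0.01. With a correction for the trend of counts on gene length they were -0.05 and 0.0006. With that correction and without mutant C they were -0.05 and -0.003. In a bulk sample, fewer cells carrying a transcript and less of it per cell cannot be told apart.

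**Figure D2:**
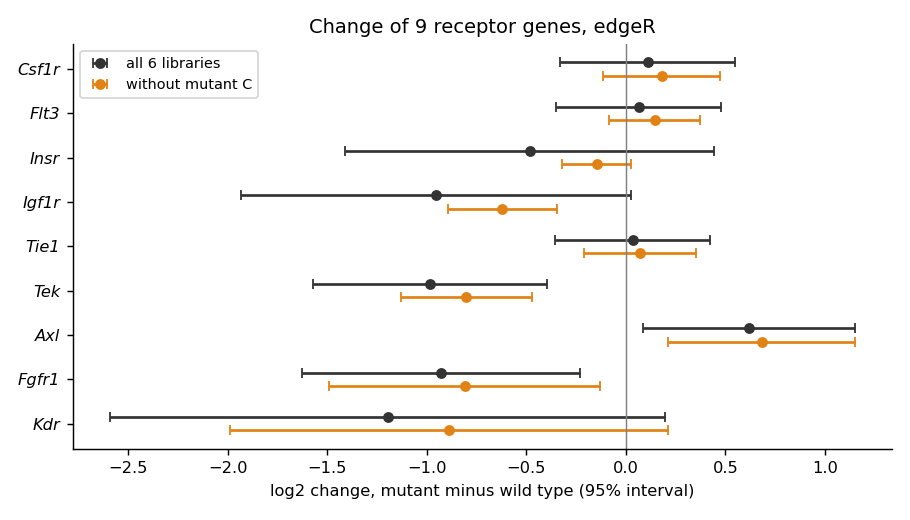
Log2 change of the 9 tested receptor genes, mutant minus wild type, from edgeR with its 95% interval, with all 6 libraries (black) and without mutant C (orange). The intervals of Tek, Fgfr1 and Axl leave out 0 with and without mutant C, that of Igf1r does so only without it, and those of Flt3, Csf1r and Tie1 lie around 0.

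Flt3 and Csf1r belong to the same receptor class as Kit. Flt3, whose ligand supports early lymphoid and myeloid progenitors, stood at 128, 159 and 141 CPM in wild-type A, F and L and at 131, 160 and 157 CPM in mutants C, D and Q. The groups overlapped, with library C low and D high among the mutants. The log2 change was 0.06 with a standard error of 0.17 and a 95% interval of -0.35 to 0.48 by edgeR (adjusted p = 0.83). With mutant C left out the change was 0.14 (-0.09 to 0.37). The interval with all libraries thus allows a change of up to 0.48 on the log2 scale, and the values are not shown to be equal.

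Csf1r, the receptor for macrophage colony-stimulating factor and interleukin 34, read 166, 156 and 146 CPM in wild type, against 149, 202 and 154 CPM in mutants C, D and Q. Mutant D was the highest library, and the other mutant values lay within the wild-type range. The log2 change was 0.11 ± 0.18 (standard error; 95% interval -0.33 to 0.55; adjusted p = 0.73 by edgeR), and 0.18 without mutant C (-0.11 to 0.47). Within a library the ratio of Flt3 to Csf1r in TPM was 0.811, 1.08 and 1.02 in wild type, against 0.912, 0.847 and 1.07 in the mutant. Flt3 lies on chromosome 5 (147330741 to 147400489, minus strand, mm10), 161 kb from Flt1, and Csf1r on chromosome 18 (61100598 to 61132149, plus strand), 15.5 kb from Pdgfrb. The annotation places Gm26597 on the strand opposite Flt3 and Hmgxb3 opposite Csf1r, and without strand information reads of such overlapping genes cannot be told apart.

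Of the ligand genes of both receptors, Csf1 had 1.3 to 2.03 CPM in wild type, against 0.330, 1.24 and 1.83 CPM in mutants C, D and Q. Flt3l was not matched, and the level of Il34 is not reported here. Of the genes of lymphoid-primed progenitors, the cells in which Flt3 is best known, Notch1 (2.33 to 25.9 TPM) and the lymphocyte adaptor gene Lax1 (3.34 to 9.57 TPM) overlapped between groups, and Dntt was at 0 in all libraries but Q (0.03 TPM). Markers of macrophages, in which Csf1r is strongest, summed over 14 genes to 18.7 to 26.1 TPM in wild type, against 16.3 to 24.3 in the mutant. These were led by Cd68 (9.37 to 17.2 TPM), Adgre1 (1.87 to 4.06) and C1qb (0.79 to 1.81), with Vsig4 at 0 throughout.

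**Figure D3:**
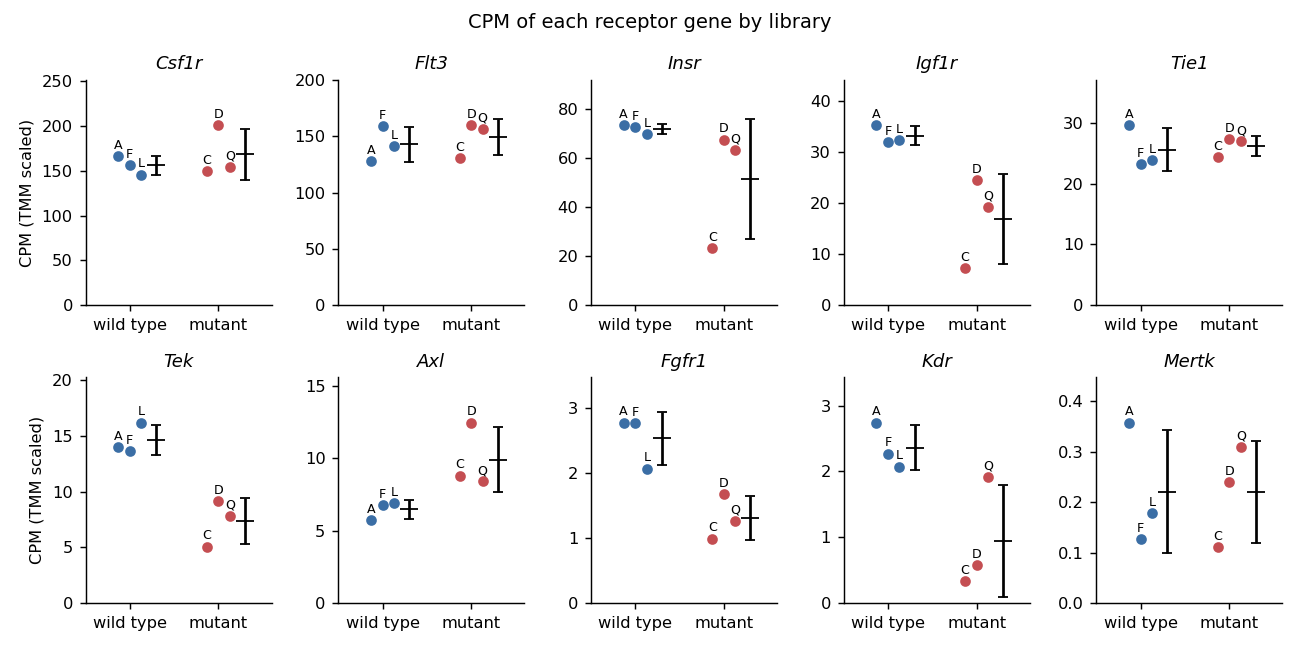
CPM of each receptor gene in each library, lettered by library, with the mean and SD of the group at the right of its points (n = 3). The wild-type and mutant points of Tek, Igf1r, Insr, Fgfr1 and Kdr are separated with the mutant lower, and those of Axl with the mutant higher.

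Tek and Tie1 encode the angiopoietin receptor pair, of which Tek was lower in every mutant library and Tie1 overlapped. TEK binds angiopoietins directly, and TIE1 pairs with TEK and modulates it without a strong ligand of its own. Tek had 14.0, 13.7 and 16.2 CPM in wild-type A, F and L and 5.07, 9.13 and 7.81 CPM in mutants C, D and Q. Every mutant library was below every wild-type one, and mutant C was the lowest. Tek was 1.98-fold lower (log2 change -0.98, standard error 0.24, 95% interval -1.57 to -0.40, unadjusted p = 0.0059), which did not pass over all genes (adjusted p = 0.53 by edgeR). Without mutant C it was 1.74-fold lower (log2 change -0.80, standard error 0.14), with an adjusted p of 0.061 by edgeR, 0.0025 by DESeq2 and 0.045 by limma-voom.

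Tie1 had 29.7, 23.2 and 23.9 CPM in wild type, against 24.3, 27.3 and 27.0 CPM in mutants C, D and Q. All mutant values lay inside the wild-type range. Its log2 change was 0.03 ± 0.16 (standard error; 95% interval -0.35 to 0.42; adjusted p = 0.91 by edgeR). The sign was not stable, and under upper-quartile scaling the change was -0.0020. Within each library, where scaling plays no part, the ratio of Tek to Tie1 in TPM was 0.439, 0.544 and 0.638 in wild type, against 0.204, 0.312 and 0.265 in the mutant. The mean log2 ratio, mutant minus wild type, was -1.06 with all libraries and -0.89 without mutant C, at an exact two-sided permutation p of 0.10, the smallest that 3 against 3 libraries allow (0.15 adjusted over the 3 ratios compared). The 3 ratios were Tek to Tie1, Igf1r to Insr and Flt3 to Csf1r. They were chosen after the values were seen, which the adjustment does not cover.

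**Figure D4:**
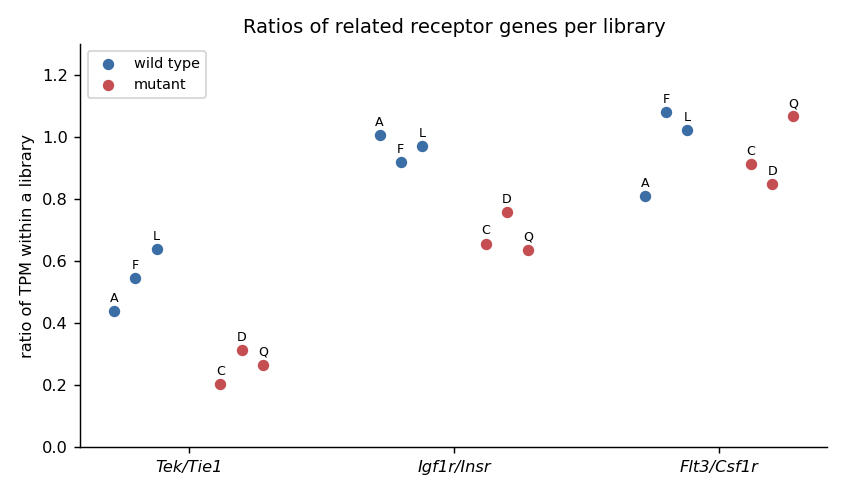
Ratio of the TPM of related receptor genes within each library, lettered by library (wild type in blue, mutant in red). The mutant libraries lie below all wild-type libraries for Tek/Tie1 (0.204 to 0.312 against 0.439 to 0.638) and Igf1r/Insr (0.635 to 0.758 against 0.919 to 1.01), and among them for Flt3/Csf1r.

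Both genes lie on chromosome 4 in mm10, Tek at 94739289 to 94874976 on the plus strand and Tie1 at 118471191 to 118490061 on the minus strand. The promoter of Tek is shown because Tek had the smallest p of the 9 receptors. The 250 bases before its RefSeq start (build GRCm38.p6) are at chr4:94739039-94739288, written 5′ to 3′ on the plus strand:
Tek: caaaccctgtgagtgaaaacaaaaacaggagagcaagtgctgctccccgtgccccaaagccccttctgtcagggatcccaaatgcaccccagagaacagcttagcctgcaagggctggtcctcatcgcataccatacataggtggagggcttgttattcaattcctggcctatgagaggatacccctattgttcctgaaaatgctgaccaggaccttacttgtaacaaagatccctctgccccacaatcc
The G and C content of this stretch was 51.2%.

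GATA factors bind short sites, and promoters from 250 bases before to 50 after the start were searched on both strands for 4 words. These were AGATAA together with its variant starting with T, which is TGATAA, and the forms of both that end in G, which are AGATAG for the first word and TGATAG for the other. None of the 4 words occurs in the stretch above. Of the 7 receptors matched in the RefSeq table (Flt3, Tek, Tie1, Igf1r, Kdr, Axl and Mertk), 1 held a word, namely Tek, at bases 37 to 42 after the start (chr4:94739325-94739330), shown here in capitals:
Tek site: agcaggagcagaAGATAAgccttgga
Of all 32851 promoters in the table, 29.8% held at least 1 of these words, so a match is a description and not a binding site.

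Angpt1, which encodes the activating ligand of TEK, stood at 113, 165 and 155 CPM in wild type, against 98.3, 129 and 137 CPM in mutants C, D and Q. The groups overlapped (log2 change -0.25, standard error 0.22, adjusted p = 0.60 by edgeR). The genes most like Tek over the 6 libraries, by root-mean-square difference of log2 CPM around each gene's mean, were the lipid transporter gene Abcb4 (0.11), the kinase gene Prkca (0.12) and the integrin gene Itgb3 (0.13), against a median of 0.58 over 10441 genes. Itgb3, the partner of CD41 on platelets, had 24.6, 29.3 and 26.8 CPM in wild type, against 8.92, 17.5 and 15.6 CPM in the mutant. Endothelial markers, from the cell type best known for both receptors, summed over 16 genes to 346 to 351 TPM in wild type, against 216, 363 and 330 TPM in C, D and Q. Most of that came from Egfl7 (176 to 224 TPM), Erg (15.7 to 57.1) and Pecam1 (7.50 to 37.1), which blood progenitors also express. Of the others, Eng was at 5.15 to 35.1 TPM, Ramp2 at 3.79 to 8.16 and Emcn at 5.6 to 7.48, and the remaining 10 were at most 2.94 TPM in any library (Plvap). Among those 10, Cdh5 was at 0.07 to 0.49 TPM, and Sox17 was at 0 in all libraries but Q (0.02 TPM). In CPM, Egfl7, Emcn and Ramp2 were higher and Pecam1 and Eng lower in every mutant library, and the other 11 overlapped. Of all genes tested, 10.6% were higher and 11.4% lower without overlap. None of these markers passed by edgeR, with adjusted p of 0.58 to 0.60 with all libraries and 0.13 to 0.75 without mutant C. The part of these markers in the Tek and Tie1 values was not tested. Itga2b, given above, was lower in all 3 mutant libraries as Tek was, and its part in the Tek values was not tested.

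Igf1r and Insr encode the closely related receptors for insulin-like growth factors and insulin. Igf1r had 35.3, 32.0 and 32.3 CPM in wild type, against 7.27, 24.5 and 19.2 CPM in mutants C, D and Q. All mutant libraries were lower, with mutant C far below the others. Igf1r was 1.94-fold lower with all libraries (log2 change -0.95, standard error 0.41, 95% interval -1.93 to 0.03, adjusted p = 0.58 by edgeR). Without mutant C it was 1.54-fold lower (log2 change -0.62, standard error 0.12, 95% interval -0.89 to -0.35), with an adjusted p of 0.085 by edgeR and 0.0050 by DESeq2.

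Insr had 73.6, 72.8 and 69.7 CPM in wild type, against 23.2, 67.5 and 63.3 CPM in the mutant. The groups did not overlap, but mutants D and Q lay close to wild-type L and mutant C far below. The log2 change was -0.48 ± 0.39 (standard error; adjusted p = 0.59 by edgeR) and -0.15 ± 0.07 without mutant C (adjusted p = 0.54). Insr is long, with 9355 bases in the deposited table, against 4489 bases for Igf1r. Each of the pair has 1 listed transcript, and its TPM and the correction for length depend on that choice of transcript. With a correction for the trend of counts on gene length, the log2 change of Insr was -0.05 and that of Igf1r -0.75. With that correction and without mutant C, Igf1r passed over all genes (log2 change -0.58, adjusted p = 0.0496 by edgeR; 0.896% of all genes passed).

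**Figure D5:**
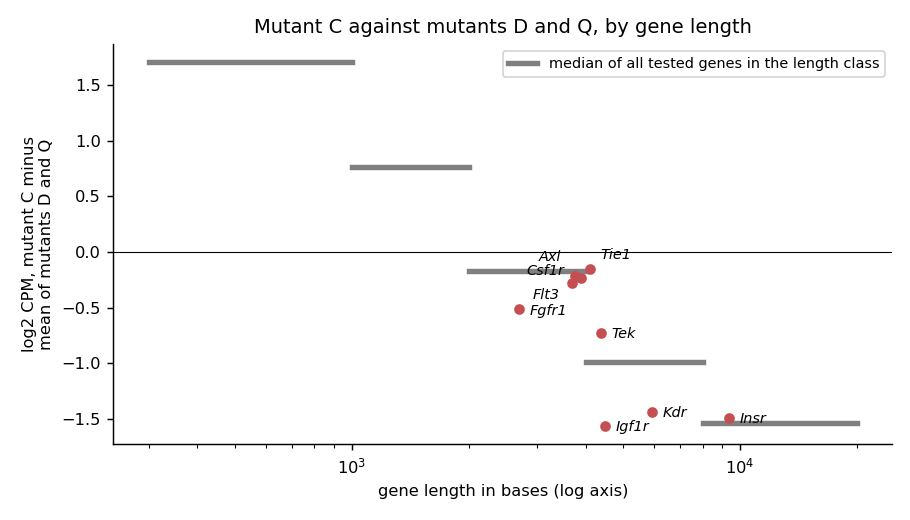
Log2 CPM of mutant C minus the mean of mutants D and Q against gene length on a log axis, with the 9 tested receptor genes as points and grey lines at the median of all tested genes in each length class (the first and last classes have no outer bound). Igf1r (-1.56) lies below the median of its length class (-0.99), Insr (-1.49) lies near that of genes over 8000 bases (-1.54), and Tie1 (-0.16) lies above.

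The ratio of Igf1r to Insr in TPM was 1.01, 0.919 and 0.970 in wild type, against 0.656, 0.758 and 0.635 in the mutant. The mean log2 ratio was -0.50 in mutant minus wild type with all libraries and -0.47 without mutant C. The exact two-sided permutation p was 0.10, the smallest possible, and 0.15 adjusted over 3 ratios. This ratio too was chosen after the values were seen, which the adjustment does not cover. Igf1r was also above Tie1 in TPM in all 3 wild-type libraries and below it in all 3 mutant libraries. That pair was picked after the values were seen, and its order was not tested. Igf1r lies on chromosome 7 (67952827 to 68233668, plus strand) and Insr on chromosome 8 (3122061 to 3279617, minus strand).

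Irs2, an adaptor of both receptors, had 0.557, 0.757 and 0.592 CPM in wild type, against 0.220, 0.335 and 0.372 CPM in mutants C, D and Q (log2 change -0.94, standard error 0.35, adjusted p = 0.58 by edgeR). The ligand gene Igf2 stood at 5.01, 3.22 and 3.49 CPM in wild type, against 6.94, 4.25 and 37.2 CPM in the mutant, where the high value was that of library Q alone (log2 change 2.06, adjusted p = 0.58 by edgeR). Hepatoblast markers summed over 11 genes to 545 TPM in mutant Q and to 44.7 to 115 TPM in the other 5 libraries, with Afp at 194 TPM, Alb at 182 and Trf at 49.0 in Q. Their part in the Igf2 value was not tested.

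Kdr and Fgfr1 were close to the floor of detection. Kdr, the main receptor for vascular endothelial growth factor A, had 69, 36 and 35 expected counts in wild type, against 3, 12 and 62 in C, D and Q, or 2.74, 2.27 and 2.07 CPM against 0.330, 0.574 and 1.92 CPM. Mutant Q was close to wild-type L, and C and D were far lower. The log2 change was -1.20 ± 0.58 (standard error; 95% interval -2.59 to 0.20; adjusted p = 0.58 by edgeR). It was -0.89 without mutant C and -2.30 without mutant Q, so mutant Q moved it by over 1.5 times. Kdr lies on chromosome 5 (75932827 to 75978458, minus strand), 276 kb from Kit and 735 kb from Pdgfra.

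Fgfr1, a fibroblast growth factor receptor, had 70, 44 and 35 expected counts in wild type, against 9, 35 and 41 in the mutant, or 2.78, 2.77 and 2.07 CPM against 0.991, 1.67 and 1.27 CPM. All mutant values were lower. It was 1.90-fold lower (log2 change -0.93, standard error 0.29, unadjusted p = 0.017, adjusted p = 0.58 by edgeR) and 1.75-fold lower without mutant C (adjusted p = 0.41). The length of Fgfr1 weighted by transcript abundance ran from 1952 to 3274 bases between libraries, so its counts were assigned to different mixes of its 8 listed transcripts. Among the genes most like Fgfr1 were Padi2 (root-mean-square difference 0.098), an arginine deiminase gene, and the AMP deaminase gene Ampd3 (0.14). Fgfr1 lies on chromosome 8 (25513654 to 25575718, plus strand).

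Axl and Mertk belong to the TAM family, which binds phosphatidylserine on dying cells through the bridging ligands GAS6 and protein S. Of the 9 tested receptors Axl alone was higher in every mutant library than in all wild-type ones, with 5.73, 6.75 and 6.93 CPM in wild type, against 8.81, 12.5 and 8.40 CPM in mutants C, D and Q. Mutant D was the highest. It was 1.53-fold higher (log2 change 0.62, standard error 0.22, 95% interval 0.09 to 1.15, unadjusted p = 0.029, adjusted p = 0.58 by edgeR) and 1.6-fold higher without mutant C (adjusted p = 0.28). On the log2(TPM + 1) scale the change was 0.06 by limma (adjusted p = 0.91). Per length the order of Axl and Tek differed between genotypes, a pair picked after the values were seen and not tested. Tek was above Axl in all 3 wild-type libraries (6.84, 5.88 and 6.96 against 3.01, 3.86 and 3.15 TPM). In all 3 mutant ones Tek was below Axl (0.780, 3.95 and 2.96 against 1.74, 6.15 and 3.66 TPM).

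Most like Axl over the 6 libraries were Apobr, a lipoprotein receptor gene (root-mean-square difference 0.11), Epb41l4b (0.13) and the interferon-induced protease gene Usp18 (0.15). Mertk had 1 to 10 expected counts per library and 0.02 to 0.19 TPM, too few for a comparison at this depth. Pros1, which encodes protein S, had 21.9, 21.6 and 23.5 CPM in wild type, against 11.7, 17.5 and 15.9 CPM in the mutant, lower in all 3 (log2 change -0.56, standard error 0.19, adjusted p = 0.58 by edgeR; -0.42 without mutant C, adjusted p = 0.14). Axl lies on chromosome 7 (25757273 to 25788705, minus strand) and Mertk on chromosome 2 (128698956 to 128802894, plus strand).

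Among 47 other receptor tyrosine kinase genes, 15 were tested and 0 passed by edgeR with all libraries (1 lower at an unadjusted p under 0.05, beside 3.09% of all genes), as did 0 of 17 without mutant C (2 lower, beside 6.02%). DESeq2 without mutant C called 1, Epha7, where it called 1.33% of all genes. Their median log2 change was -0.44, beside -0.02 for all genes, and -0.23 without mutant C, beside -0.01. With all libraries and the correction for the trend of counts on gene length, the median was -0.24, beside 0.0006 for all genes. In 6 of the 15 the mutant was lower without overlap, as in 5 of the 9 receptors described above and 11.4% of all genes. These shares include mutant C, whose counts fell on shorter genes, and the part of gene length in them was not tested. Epha7, an ephrin receptor gene, had 15.1, 10.6 and 10.2 CPM in wild type, against 3.41, 6.93 and 6.54 CPM in the mutant (log2 change -1.07, standard error 0.31, adjusted p = 0.58 by edgeR, and 0.030 by DESeq2 without mutant C). Ephb6, an ephrin receptor without kinase activity, had a log2 change of -0.44, and Pdgfrb, the platelet-derived growth factor receptor next to Csf1r, one of -0.55, from 26.4 to 30.5 CPM in wild type to 10.9, 24 and 22.3 CPM. Met, the hepatocyte growth factor receptor, and Ptk7 were the most abundant of this list, at means of 17.7 and 27.0 TPM, with log2 changes of -0.03 and -0.16.

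Of the signalling partners, 0 passed over all genes by edgeR with or without mutant C. Without it, 1 ligand and 6 adaptor genes were lower at an unadjusted p under 0.05 (6.02% of all genes), and 1 ligand, 1 coreceptor and 1 adaptor gene were higher (4.34%). DESeq2 without mutant C called 0, 0 and 1 (1.33% of all genes). The ligand list had 7 tested genes with a median log2 change of -0.25, and -0.15 without mutant C (1 lower, Pros1, and 1 higher, Igf2, at an unadjusted p under 0.05), and the third smallest p belonged to Vegfa (log2 change -0.72). Coreceptors, binding proteins, sheddases and receptor phosphatases had 13 tested genes, a median of -0.16 that turned to 0.04 without mutant C, and 0 at an unadjusted p under 0.05 with all libraries, led by Fgfrl1 (-0.38), the phosphatase gene Ptpn6 (0.35) and Svep1 (0.68). Stromal markers, among which the ligands of several receptors are made, summed to 1.24 to 4.44 TPM over 9 genes, with Postn at 1.02 to 2.70, Cxcl12 at 0 to 0.84 and Col3a1 at 0 to 0.67 TPM.

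Adaptors and effectors had 41 tested genes with a median log2 change of -0.26 and -0.03 without mutant C, and 1 at an unadjusted p under 0.05 (Irs2). Stat3, a transcription factor activated by several receptors, had 118, 110 and 108 CPM in wild type, against 42.5, 88.0 and 82.1 CPM in mutants C, D and Q (log2 change -0.66, adjusted p = 0.58 by edgeR). Without mutant C its change was -0.41, with an adjusted p of 0.10 by edgeR and 0.0018 by DESeq2, which called 1 of the 43 adaptor genes. Map2k1, the kinase upstream of ERK, was higher in all 3 mutant libraries, at 77.3 to 78.1 CPM in wild type, against 109, 94.6 and 89.2 CPM in the mutant (log2 change 0.33, adjusted p = 0.58 by edgeR).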

How the data were processed

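The authors' deposited files give 1 table of genes per library. Bowtie 1.1.1, RSEM 1.2.18 and CASAVA 1.8.2 with build mm10 are listed in the submitters' processing notes. Which strand and layout were read, and which annotation release was used, is not given in the sources used here. The expected counts (estimated read counts that need not be whole) were deposited unscaled, per the file headers. TPM values were deposited as RSEM wrote them, per the file headers. Gene lengths come from the deposited length column.

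Gene symbols were looked up by Ensembl identifier (24448 of 24815 rows named), and positions were taken from GENCODE M21 of the same build. Counts were rounded and fitted with edgeR 4.0.16 (R 4.3.3): filterByExpr (minimum count 10), TMM scaling, quasi-likelihood F test, Benjamini-Hochberg adjustment over all genes, threshold 0.05. The standard error of a change is its size divided by the square root of F, and intervals are at 95%. Other fits used DESeq2 1.42.0, limma 3.58.1 on voom values or on log2(TPM + 1) and log2(TPM + 0.1), and edgeR with offsets from a lowess trend of counts on gene length. The code was tested on simulated data. The receptors and all gene lists were chosen with earlier results of these data known. Genes named from the lists are those past the threshold by edgeR or, with none, the 3 with the smallest p; from the marker lists, the 3 most abundant; for likeness, the 3 nearest genes with at least 50 counts on average for each of the 3 receptors with the smallest p. Angpt1, Csf1, Met, Ptk7, the endothelial markers besides Egfl7, Erg and Pecam1, Dntt, Vsig4, Cd3e and the 3 receptor ratios are outside that rule, picked once values had been seen. So are the TPM orders of Igf1r with Tie1 and of Tek with Axl. Flt3l, Figf and Ly76 matched no gene. Some genes that the rule names, and the summed level of the lymphoid-primed list, are not reported here.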

Additional observations from a re-analysis of the deposited data

How the results depend on the processing

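There were 19 other settings, of which 2 (DESeq2 and limma-voom without mutant C) were chosen after seeing the data. In every setting Tek, Igf1r, Insr, Kdr and Fgfr1 had log2 changes below 0 and Axl above 0. All settings drew on the same libraries, and these genes had groups without overlap in CPM, so the kept sign is not separate support. Receptors past the threshold numbered 2 by limma-voom with quality weights, 2 by DESeq2 without mutant C, 1 by limma-voom without mutant C and 1 with length-trend offsets and without mutant C, and 0 in the other 15. In those fits Tek was at -0.88, -0.79 and -0.81 (the first 3) and Igf1r at -0.68, -0.61 and -0.58 (quality weights, DESeq2, length-trend offsets). Over single left-out libraries Tek ran from -1.16 to -0.80 and Igf1r from -1.30 to -0.62. With TPM, the median of all genes moved to -0.50 (pseudocount 1) and -0.63 (pseudocount 0.1), and Flt3 (-0.55 and -0.57), Csf1r (-0.52 and -0.53) and Tie1 (-0.51 and -0.58) turned sign, near that median; the cause was not tested. On the same scales Axl was at 0.06 and 0.04 (adjusted p = 0.91 and 0.96 by limma), against 0.62 in CPM. Leaving out 1 library moved Flt3 between -0.0068 and 0.15, Csf1r between -0.038 and 0.18 and Tie1 between -0.030 and 0.15, and upper-quartile scaling put Tie1 at -0.0020.

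Over all genes, 19 passed by edgeR, 36 without the filter, 124 by DESeq2, 32 by limma-voom, 357 with quality weights, 11 on log2(TPM + 0.1), 54 with length-trend offsets, 113 with those offsets and without mutant C, 243 by DESeq2 and 111 by limma-voom without mutant C, and 0 to 106 with 1 library left out. The 106 was without mutant C, and each other library left out gave 0 (294 to 1611 genes at an unadjusted p under 0.05; no other tool was run there). Depth limits Kdr and Mertk, whose lowest libraries held 3 and 1 counts. No paired analysis was possible because the libraries share no replicate letters between the groups.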
